A study of Mus musculus with 8 samples.

Results

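The genes described here are 9 regulators and markers of endoderm: the transcription factor genes Gata4, Gata6, Sox17, Sox7, Foxa2, Foxa1 and Hnf4a, the growth factor receptor gene Pdgfra and the endocytic adaptor gene Dab2. They are 9 of 21887 protein-coding genes, and were chosen by name. Every accessible region (peak) whose centre lay inside the span of one of these genes in the GRCm38 assembly, or within 50 kb of it, was taken, which gave 92 of the 134407 peaks measured. Of these, 62 had no other protein-coding gene nearer and are called the gene's own peaks, and 30 lay nearer to, or inside, another gene, which is named where a result touches it. Accessibility had been measured with ATAC-seq, a method that cuts and tags open chromatin with Tn5 transposase, in wild-type mouse embryonic stem cells of the E14 line, kept on gelatin in medium with serum and the cytokine LIF. The control group (4 libraries) is labelled as the control condition, with no agent named. The paused group (4 libraries) had the same genotype and medium, with 200 nM INK128, an inhibitor of the growth-regulating kinase mTOR, for 24 h before collection. Each library came from 50000 live cells. The labels do not say whether the 4 libraries of a group came from separate cultures, so p-values measure the spread between these libraries, which may be technical.

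In the early mouse embryo the inner cell mass divides into the epiblast, which embryonic stem cells resemble, and the primitive endoderm, which lines the blastocyst cavity and forms the yolk sac. GATA6 and GATA4 are zinc-finger factors of the primitive endoderm programme, and SOX17 and SOX7 are HMG-box factors of it. PDGFRA and DAB2 are a surface receptor and an endocytic adaptor that mark these cells. FOXA2 and FOXA1 are forkhead factors that can bind closed chromatin, and HNF4A is a nuclear receptor of visceral endoderm, liver and gut. In undifferentiated stem cells these genes are largely kept silent, and the question here was whether chromatin at them differed between control and paused cells.

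The deposited value of a peak is its read number divided by 1 factor per library. Reads in peaks ranged from 4434037 to 21161767 per library, the latter in control replicate 1, against 4434037 to 7238935 in the other 7. The median peak held 18 to 91 reads. A peak with no read in a library could still hold up to 3, a value of 1.04 to 5.08 depending on the library. Changes are differences of mean log2(value + 1), paused minus control, tested with limma-trend over the 127402 peaks whose mean value reached 10. A peak is called when its Benjamini-Hochberg adjusted p over all of them was under 0.05. The median change of all tested peaks was 0.10 on this log2 scale, and ran from -0.20 in the weakest 10% of peaks to 0.20 in the strongest 10%, so single changes are to be read against that shift. These are bulk libraries, in which a change in every cell and a change in the number of cells with an open site cannot be told apart.

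The windows of the 9 genes held between 3 peaks, at Sox7, and 21, at Hnf4a. Per 100 kb of window this was 2.80 peaks at Sox7, 4.15 at Dab2, 5.63 at Sox17, 5.76 at Foxa2, 6.76 at Gata6, 7.49 at Pdgfra, 8.10 at Gata4, 11.2 at Foxa1 and 12.6 at Hnf4a. The median over all protein-coding genes was 8.85, with quartiles of 3.78 and 14.8, so 8 of the 9 windows lay between the quartiles and that of Sox7 lay below them. At Hnf4a, 16 of the 21 peaks were nearer to a neighbour: 6 to Ttpal, 4 to Fitm2, 4 to R3hdml and 2 to Gdap1l1. Gata6, Sox17 and Foxa2 had no peak nearer to another protein-coding gene. Own peaks were mostly of middling strength, with a median at percentile 63.5 of all peaks by mean value; the weakest, in Hnf4a, was at 4.10 and the strongest, in Sox17, at 98.1.

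Start sites of 5 of the 9 genes, 9 in all, were listed in RefSeq for GRCm38.p6: 3 for Foxa2, 2 for Hnf4a, 2 for Dab2 and 1 each for Pdgfra and Foxa1. Only 2 of these 9 (22.2%) had a peak centre within 1 kb, that of Foxa1 at 856 bp upstream and the second of Dab2 at 97 bp upstream. Over all 21263 protein-coding start sites the share was 64.0%. The nearest peaks of the other listed starts lay 1710, 2731 and 3215 bp away at Foxa2, 3362 bp at Pdgfra, 3478 and 12032 bp at Hnf4a and 23747 bp at the first start of Dab2. In the 250 bases before the start, the starts of Foxa1 and the second of Dab2 held 8.4 and 6.8 CpG dinucleotides per 100 bases. Those of Pdgfra, of Hnf4a and the first of Dab2 held 0.8 to 1.6. The median was 4 over all protein-coding starts and 6 over those with a peak within 1 kb. The 3 starts of Foxa2 held 2.4, 8 and 5.2, so a CpG-rich start without a peak within 1 kb also occurred. The share of 22.2% counts the 3 starts of Foxa2 separately and leaves out Gata4, Gata6, Sox17 and Sox7, whose start sites were not analysed here. At those genes the peak centre nearest to either end of the gene span lay 88 bp from it at Sox7, 568 bp at Gata6, 707 bp at Sox17 and 3209 bp at Gata4. The share is thus no result about the 9 genes as a group.

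Across the 9 genes, 8 own peaks were more accessible in paused cells and none was called less accessible. The 8 higher peaks were 3 at Foxa1, 2 at Pdgfra, 2 at Dab2 and 1 at Sox7, with no call at Gata4, Gata6, Sox17, Foxa2 or Hnf4a. They were 8 of the 61 own peaks tested (13.1%), where 11.0% of all 127402 peaks were called higher, so as a group these genes were called about as often as peaks in general. For lower peaks limma-trend called 0 of 61, where 2.91% of all peaks were called lower. At an unadjusted p under 0.05, 2 of the 61 were lower, against 7.61% of all peaks, and on recovered reads edgeR with TMM and DESeq2 also called 0 lower, where they called 5.54% and 1.49% of all peaks lower. Of the 61 changes 44 were positive and 17 negative, with a median of 0.12 beside 0.10 for all peaks. Positive changes were thus the more frequent over all tested peaks too. The 4 paused values lay above all 4 control values in 10 own peaks and below them in 1, where 13.0% and 4.36% of all tested peaks did so. The number called higher was 4 without control replicate 1 or control replicate 3, where 10623 and 10796 of all 127402 peaks were. It was 5 without paused replicate 1 or paused replicate 4 (12679 and 8980 of all peaks). The number also changed with the scaling. It was 4 with TMM rescaling in limma-trend (5.99% of all peaks), 4 with edgeR and TMM (7.13%), 3 after a loess correction on peak strength (5.10%), 2 with DESeq2 (3.06%) and 9 with a block on the replicate number (13.6%).

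**Figure D1:**
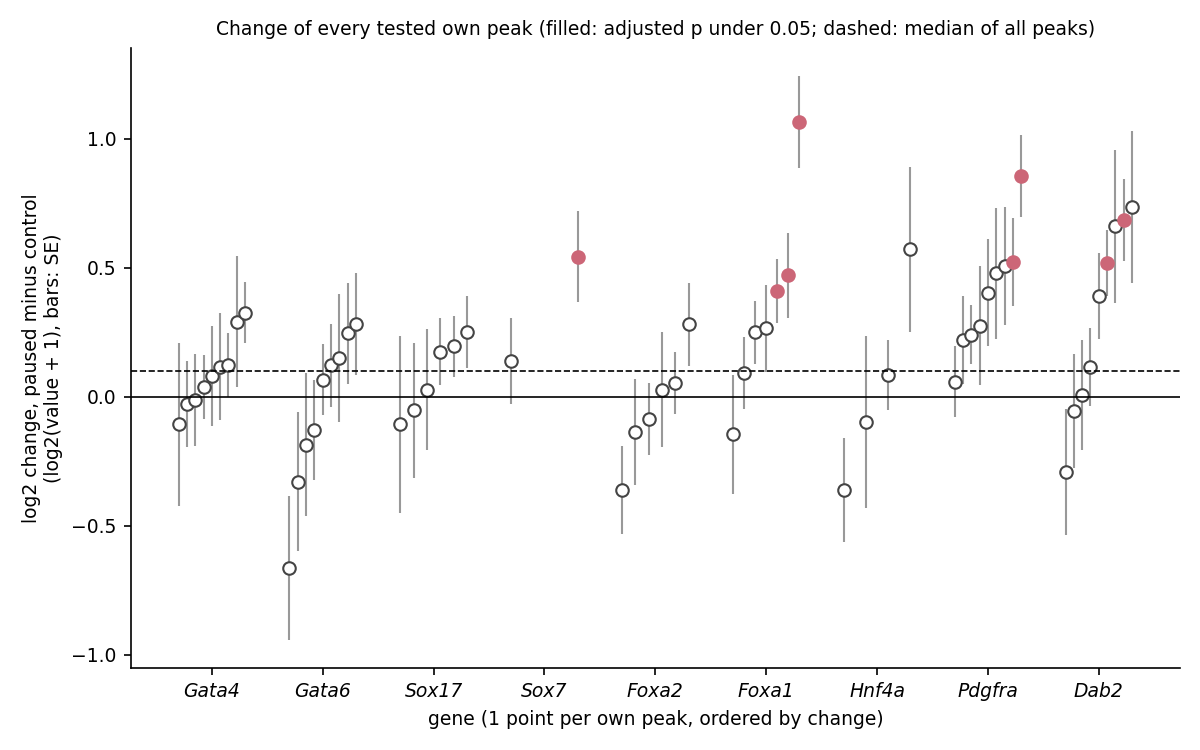
Log2 change (paused minus control, of value + 1) of each tested own peak of the 9 genes, ordered by change within a gene, with bars of 1 SE; filled points have an adjusted p under 0.05 and the dashed line is the median of all peaks. The called own peaks are at Sox7, Foxa1, Pdgfra and Dab2, all of them above 0, and every own peak of Pdgfra lies above 0 under the deposited scaling (the one nearest to its start turned below 0 after TMM rescaling).

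Gata4 (chr14:63198914-63271712) had no own peak called by limma-trend under the deposited scaling. Its strongest own peak, inside the gene at chr14:63255961-63256161, had values of 170.1, 258, 189.7 and 184 in control replicates 1 to 4 and 239.9, 239.8, 245 and 268 in paused replicates 1 to 4. Control replicate 2 lay among the paused values and the other 3 controls below them. The mean went from 200.3 ± 39.3 to 248 ± 13.6 (SD, n = 4 each; a log2 change of 0.33 with SE 0.12; limma-trend adjusted p = 0.059), and without control replicate 2 it was called (0.45, adjusted p = 0.00701). It was also called with edgeR on the deposited factors (adjusted p = 0.0452) and by limma-trend with a minimum mean of 50 (adjusted p = 0.0396), and not after TMM rescaling (0.22, adjusted p = 0.227) or loess correction (0.12, adjusted p = 0.547). The peak nearest to either end of the gene, 3209 bp inside it, was weak, with 37.3 ± 8.78 to 38.6 ± 1.93 (SD, n = 4; a log2 change of 0.080 with SE 0.19), a change whose sign turned after TMM rescaling or loess correction. All 9 own changes at Gata4 lay between -0.11 and 0.33.

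At Gata6 (chr18:11052510-11085636), whose product is the first of these factors to mark primitive endoderm, the strongest own peak was also the one nearest to either end. It lay 568 bp inside the lower-coordinate end of the gene (chr18:11052978-11053178). Its values were 81.2, 95.5, 81.3 and 82.3 in control replicates 1 to 4 and 96.9, 78.9, 88.4 and 92.5 in paused replicates 1 to 4. The groups overlapped, with means of 85.1 ± 6.99 to 89.2 ± 7.70 (SD, n = 4 each; a log2 change of 0.066 with SE 0.14; limma-trend adjusted p = 0.79), and the sign turned after TMM rescaling or loess correction. A weaker peak inside the gene, at chr18:11078242-11078442, was the 1 own peak of the 9 genes whose paused values all lay below the controls: 19.4, 21.5, 22.0 and 22.0 in control replicates 1 to 4 and 12.7, 11.0, 10.9 and 18.8 in paused replicates 1 to 4. Its mean went from 21.2 ± 1.27 to 13.3 ± 3.70 (SD, n = 4; a log2 change of -0.66 with SE 0.28), but limma-trend did not call it (adjusted p = 0.105). A noncoding gene, Gata6os, overlaps part of this window.

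Sox17 (chr1:4490928-4497426) held the strongest own peak of all 9 genes, inside the gene at chr1:4492912-4493112. Its values were 218, 276, 309.9 and 310.1 in control replicates 1 to 4 and 329, 254, 363 and 328 in paused replicates 1 to 4. The groups overlapped, and the means of 278 ± 43.5 to 318 ± 46.0 (SD, n = 4 each; a log2 change of 0.20 with SE 0.12) did not pass the test (limma-trend adjusted p = 0.28). The peak nearer to a gene end, at chr1:4496619-4496819 and 707 bp inside, went from 115 ± 16.9 to 130.1 ± 14.9 (SD, n = 4; a log2 change of 0.18 with SE 0.13; limma-trend adjusted p = 0.393). Both changes were close to the shift seen for strong peaks in general, and both turned sign after the loess correction.

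Sox7 (chr14:63943706-63950732) had 2 own peaks. One, 7165 bp below the lower-coordinate end of the gene at chr14:63936441-63936641, was higher in paused cells, with values of 32.8, 35.8, 32.2 and 47.0 in control replicates 1 to 4 and 55.4, 53.6, 49.6 and 56.2 in paused replicates 1 to 4. No paused value fell within the control range. The mean went from 37.0 ± 6.89 to 53.7 ± 2.92 (SD, n = 4 each; a log2 change of 0.54 with SE 0.18; limma-trend adjusted p = 0.0337), and the call was lost after TMM rescaling (0.44, adjusted p = 0.101) and without any one of 6 of the 8 libraries (control replicates 1, 2 and 3, paused replicates 1, 2 and 4; adjusted p = 0.0597 to 0.104). The other, 88 bp inside the same end, went from 53.1 ± 10.9 to 57.9 ± 6.26 (SD, n = 4; a log2 change of 0.14 with SE 0.17; limma-trend adjusted p = 0.626) and turned sign after the loess correction.

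The forkhead genes come as a pair of close relatives. Foxa2 (chr2:148042877-148046969, minus strand) had 6 own peaks and none called, the strongest of them 1710 bp upstream of the first start at chr2:148048579-148048779. Its values were 137, 143, 159 and 126 in control replicates 1 to 4 and 139.6, 139, 163 and 145 in paused replicates 1 to 4. The groups overlapped, at 141 ± 13.8 to 147 ± 11.2 (SD, n = 4 each; a log2 change of 0.055 with SE 0.12; limma-trend adjusted p = 0.806), and the sign turned after TMM rescaling or loess correction. The most negative own change at Foxa2, on the far side of the gene at chr2:148030463-148030663, was -0.36 (SE 0.17) and was not called either (limma-trend adjusted p = 0.156).

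Foxa1 (chr12:57540628-57548029, minus strand) had 3 called peaks of 7. The one with the lowest p of all own peaks lay 35153 bp beyond the gene's 3′ end, at chr12:57505375-57505575. Its values were 34.9, 29.9, 23.7 and 39.7 in control replicates 1 to 4 and 63.5, 69.4, 62.1 and 73.8 in paused replicates 1 to 4. The lowest paused value was well above the highest control value. The mean went from 32.0 ± 6.85 to 67.2 ± 5.45 (SD, n = 4 each; a log2 change of 1.07 with SE 0.18; limma-trend adjusted p = 8.03e-05). It kept its call whichever library was left out and in the 8 other settings that tested it, from 0.92 to 1.09; the ninth, a minimum mean of 50, left it out of the test.

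The strongest own peak of Foxa1, inside the gene 3631 bp downstream of the start at chr12:57542380-57542580, had values of 141, 178, 119 and 157 in control replicates 1 to 4 and 195, 189, 222 and 179 in paused replicates 1 to 4. All paused values lay above all control values, by a narrow margin between control replicate 2 and paused replicate 4. The mean went from 149 ± 25.2 to 196 ± 18.2 (SD, n = 4 each; a log2 change of 0.41 with SE 0.12; limma-trend adjusted p = 0.0223). The remaining called peak, 24712 bp beyond the 3′ end at chr12:57515816-57516016, went from 44.1 ± 3.99 to 61.8 ± 8.63 (SD, n = 4; a log2 change of 0.47 with SE 0.17; limma-trend adjusted p = 0.0497) with no overlap. The first lost its call without control replicate 1, control replicate 3 or paused replicate 3 (adjusted p = 0.0542 to 0.118), and the second without any library but paused replicate 2 (adjusted p = 0.0632 to 0.171). Both also lost it after TMM rescaling (0.31, adjusted p = 0.098, and 0.37, adjusted p = 0.146). The peak by the Foxa1 start itself, 856 bp upstream and also inside the span of the neighbouring gene Ttc6, was not called: 89.6 ± 11.5 to 95.7 ± 13.7 (SD, n = 4; a log2 change of 0.092 with SE 0.14; limma-trend adjusted p = 0.71), with a sign that turned after TMM rescaling or loess correction.

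**Figure D2:**
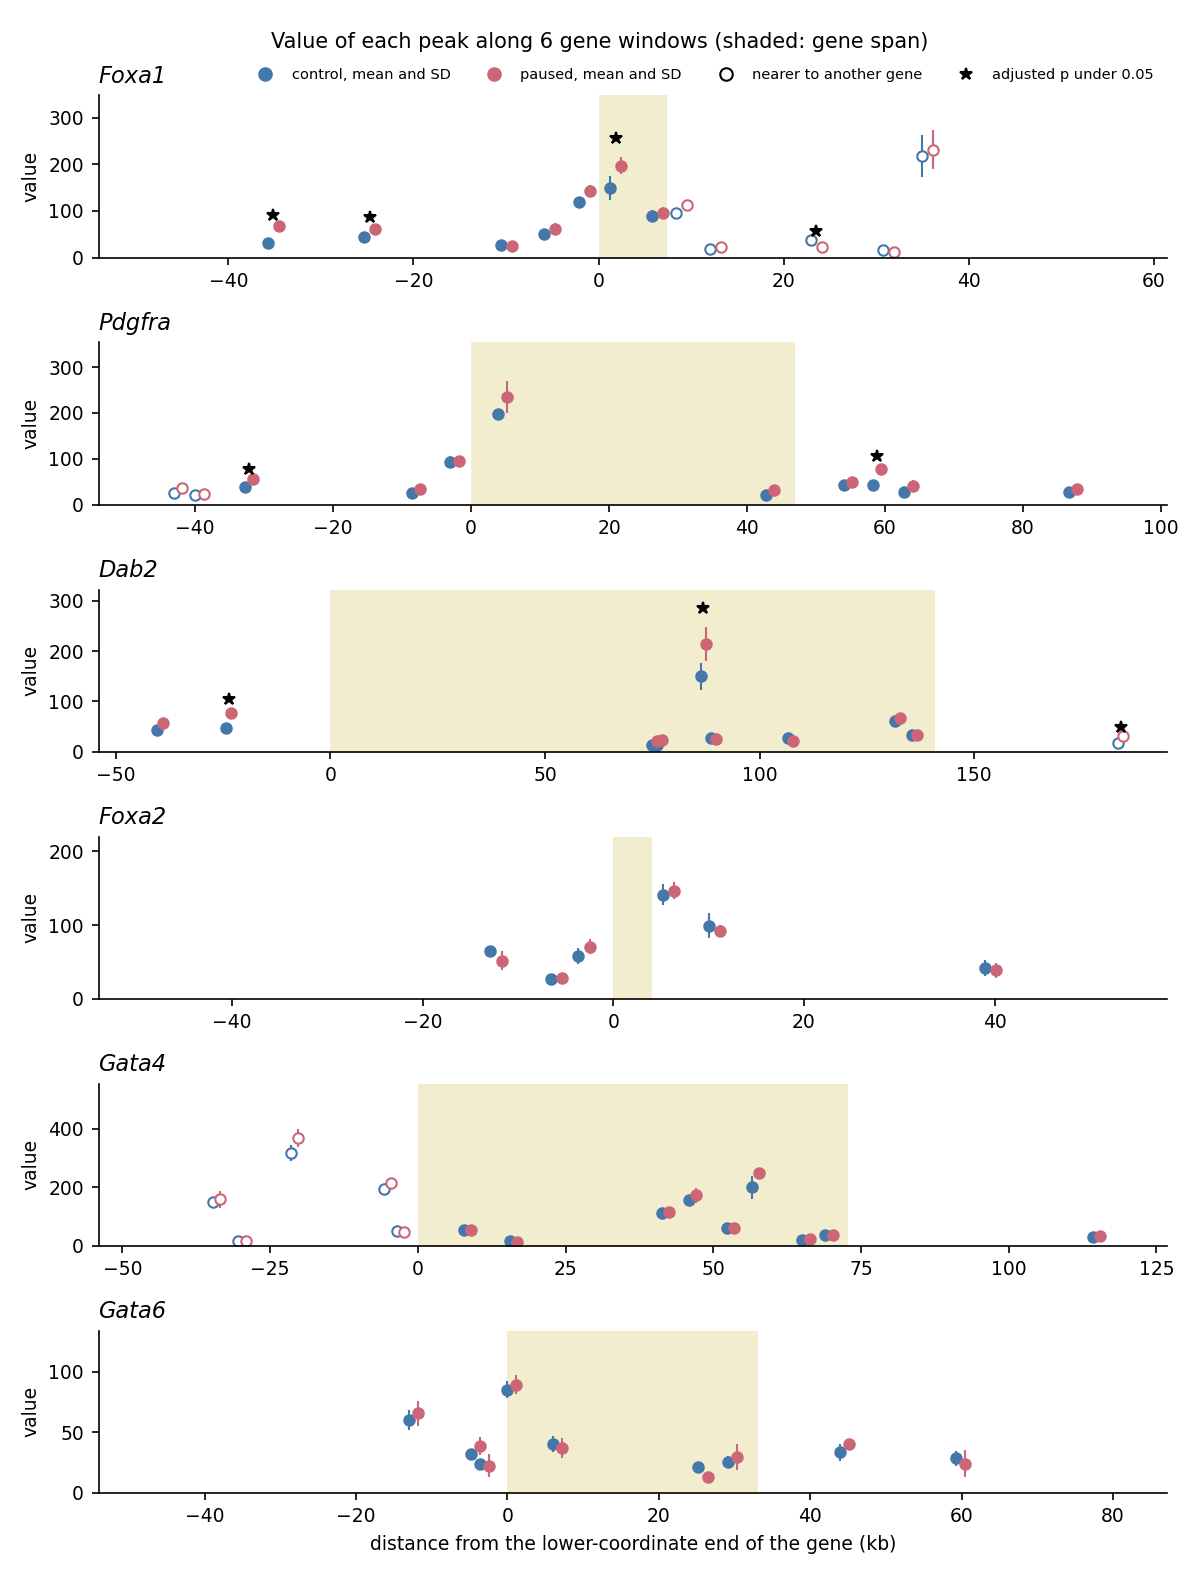
Mean deposited value and SD (4 libraries a group) of each peak along 6 of the gene windows, against distance in kb from the lower-coordinate end of the gene span (shaded); control and paused points of a peak are drawn side by side, open circles are peaks nearer to another gene and stars mark adjusted p under 0.05. The starred own peaks of Foxa1 and Dab2 lie both inside and outside the genes and those of Pdgfra lie outside it. No own peak of Foxa2, Gata4 or Gata6 is starred.

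On the other side of Foxa1, a peak at a listed start inside the span of Ttc6 moved the other way. Ttc6 is a gene of unsettled function whose span also covers the peak by the Foxa1 start. The values of the peak at chr12:57564028-57564228 were 42.9, 35.8, 40.6 and 30.9 in control replicates 1 to 4 and 23.1, 28.4, 20.2 and 19.9 in paused replicates 1 to 4. No paused value reached the control range, and the mean fell from 37.5 ± 5.34 to 22.9 ± 3.94 (SD, n = 4 each; a log2 change of -0.69 with SE 0.21; limma-trend adjusted p = 0.0244). The 87 bases of this peak that lie before this listed Ttc6 start are shown, from RefSeq GRCm38.p6 (chr12:57564028-57564114, plus strand). They are shown because the peak is one of the 2 peaks in the 9 windows that were called lower. Capitals mark CpG dinucleotides, of which the 87 bases hold 4.
Ttc6 peak upstream of the start: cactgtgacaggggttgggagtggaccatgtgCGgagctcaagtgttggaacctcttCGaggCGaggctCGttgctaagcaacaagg

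Hnf4a (chr2:163506811-163572907, plus strand) had 5 own peaks and none called. The strongest, 12032 bp upstream of its second start at chr2:163535023-163535223, had values of 134, 100.3, 157 and 120.5 in control replicates 1 to 4 and 109.6, 148, 151 and 131 in paused replicates 1 to 4. The groups overlapped, at 128 ± 24.0 to 135 ± 18.9 (SD, n = 4 each; a log2 change of 0.083 with SE 0.14; limma-trend adjusted p = 0.731), and the sign turned after TMM rescaling or loess correction. The peak nearest to a start, at chr2:163510832-163511032, was weak, with 13.2 ± 4.16 to 12.2 ± 3.40 (SD, n = 4; a log2 change of -0.097 with SE 0.33, positive after loess correction), and a further peak at chr2:163516268-163516468 had too low a mean, 9.17, to be tested.

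Within 50 kb of Hnf4a, however, 4 peaks that lie nearer to other genes were called. The peak at chr2:163463298-163463498, nearest to Fitm2 (a gene of lipid droplet formation), had values of 214, 213, 215 and 244 in control replicates 1 to 4 and 298, 309, 338 and 337 in paused replicates 1 to 4, with no overlap (a log2 change of 0.53 with SE 0.11; limma-trend adjusted p = 0.000612). Near Ttpal, the peak at chr2:163608054-163608254 had values of 36.3, 28.7, 33.9 and 23.5 in control replicates 1 to 4 and 69.2, 52.0, 57.4 and 57.4 in paused replicates 1 to 4. It too showed no overlap, and its mean rose from 30.6 ± 5.69 to 59.0 ± 7.25 (SD, n = 4 each; a log2 change of 0.94 with SE 0.18; limma-trend adjusted p = 0.000527). A second peak near Ttpal was called higher by 0.71 (SE 0.24; limma-trend adjusted p = 0.0385). That call was lost after TMM rescaling (adjusted p = 0.0905), after loess correction (adjusted p = 0.0738), with DESeq2 (adjusted p = 0.175) and without any one of control replicates 1 and 3 and paused replicates 1, 3 and 4 (adjusted p = 0.0708 to 0.131). One near R3hdml fell from 34.1 ± 3.92 to 21.3 ± 8.11 (SD, n = 4; a log2 change of -0.71 with SE 0.24; limma-trend adjusted p = 0.0365). In all, 5 of the 30 peaks nearer to another gene were called higher (11.0% of all peaks) and 2 lower (2.91%). The first count was 3 without control replicate 3 or paused replicate 1, where 10796 and 12679 of all 127402 peaks were called higher. The second was 0 without control replicate 1 or paused replicate 4, where 2331 and 2587 of all peaks were called lower. It was 1 without any other library but paused replicate 2. Of the falls, the R3hdml peak lost its call in 6 of those refits and with DESeq2 (adjusted p = 0.0819), and the Ttc6 peak in 3. The remaining ones were near Rp1l1, in the Sox7 window, C9, in the Dab2 window, and Ttc6; the C9 call was lost after TMM rescaling (adjusted p = 0.0503), with edgeR and TMM (adjusted p = 0.077), with DESeq2 (adjusted p = 0.225) and without control replicate 3 or paused replicate 1. The Rp1l1 peak at chr14:63993186-63993386 had the largest change of any peak in the 9 windows, with values of 12.1, 15.5, 23.7 and 10.3 in control replicates 1 to 4 and 31.1, 34.7, 34.1 and 34.0 in paused replicates 1 to 4 and no overlap (a log2 change of 1.14 with SE 0.25; limma-trend adjusted p = 0.00199).

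Pdgfra (chr5:75151322-75198206, plus strand) encodes the receptor for PDGF-A, which supports survival of primitive endoderm. Positive changes were the more frequent over all tested peaks, whose median was 0.10. At Pdgfra all 9 own peaks had a positive change under the deposited scaling, between 0.059 and 0.86. Of these, 1 turned negative after TMM rescaling, and 2 were called. The first, 11965 bp beyond the gene at chr5:75210071-75210271, had values of 46.0, 43.0, 40.6 and 38.2 in control replicates 1 to 4 and 64.6, 91.5, 72.9 and 79.7 in paused replicates 1 to 4. The groups were well apart, and the mean went from 42.0 ± 3.32 to 77.2 ± 11.4 (SD, n = 4 each; a log2 change of 0.86 with SE 0.16; limma-trend adjusted p = 0.00031). It kept its call in all 9 alternative settings, from 0.70 to 0.87, and whichever library was left out. The second, 32245 bp before the gene at chr5:75118977-75119177, had values of 41.5, 35.8, 35.6 and 39.7 in control replicates 1 to 4 and 58.8, 64.7, 48.1 and 50.4 in paused replicates 1 to 4. These did not overlap either (38.1 ± 2.92 to 55.5 ± 7.66, SD, n = 4; a log2 change of 0.52 with SE 0.17; limma-trend adjusted p = 0.0363), but the call was lost after TMM rescaling (0.42, adjusted p = 0.11) and on leaving out any library but paused replicate 3 (adjusted p = 0.0508 to 0.116).

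The strongest peak of Pdgfra, inside the gene 3630 bp downstream of the start at chr5:75155781-75155981, went from 198 ± 9.96 to 236 ± 34.9 (SD, n = 4 each; a log2 change of 0.24 with SE 0.11) and was not called (limma-trend adjusted p = 0.158). The peak nearest to the start, 3362 bp upstream, went from 92.9 ± 12.8 to 96.1 ± 4.48 (SD, n = 4; a log2 change of 0.059 with SE 0.14; limma-trend adjusted p = 0.816), with a sign that turned after TMM rescaling or loess correction. Among the 9 positive changes of the locus, the calls were thus at peaks of moderate strength outside the gene, not at its strongest peaks.

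Dab2 (chr15:6299788-6440715, plus strand) encodes an adaptor that couples receptors of the LDL receptor family to clathrin in endoderm. RefSeq lists a pair of starts, at 6299789 and 6386748. The called peak at the second start covers it, whereas the nearest peak centre to the first lies 23747 bp away. The 2 sequences are shown to compare them, from RefSeq GRCm38.p6 on the plus strand, with CpG dinucleotides in capitals: the whole peak of 201 bases at chr15:6386551-6386751 and the 250 bases before the first start at chr15:6299539-6299788.
Dab2 second start, called peak: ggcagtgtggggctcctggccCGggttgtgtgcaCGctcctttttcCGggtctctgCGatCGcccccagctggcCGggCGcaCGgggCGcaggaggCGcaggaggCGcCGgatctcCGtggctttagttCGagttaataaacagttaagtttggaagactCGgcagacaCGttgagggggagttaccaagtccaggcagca
Dab2 first start, upstream: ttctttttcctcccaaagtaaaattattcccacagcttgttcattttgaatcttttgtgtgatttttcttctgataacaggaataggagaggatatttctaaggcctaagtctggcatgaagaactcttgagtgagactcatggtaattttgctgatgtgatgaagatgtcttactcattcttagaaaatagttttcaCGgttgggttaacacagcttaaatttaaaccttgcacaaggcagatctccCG
The first sequence holds 16 CpG dinucleotides in 201 bases (GC content 62.7%) and the second holds 2 in 250 bases (36.8%).

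The peak at the second start was the strongest of the Dab2 own peaks. Its values were 134, 130.2, 188 and 148 in control replicates 1 to 4 and 176, 226, 256 and 203 in paused replicates 1 to 4. Control replicate 3 lay above paused replicate 1, so the groups overlapped by 1 value on each side. The mean rose from 150.1 ± 26.4 to 215 ± 33.8 (SD, n = 4 each; a log2 change of 0.52 with SE 0.13; limma-trend adjusted p = 0.00498). The call was lost after the loess correction (0.31, adjusted p = 0.0877) and with DESeq2 (adjusted p = 0.0597).

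The other called peak of Dab2, 23746 bp before the gene at chr15:6275942-6276142, had values of 49.1, 38.2, 47.4 and 54.4 in control replicates 1 to 4 and 64.6, 80.4, 88.4 and 72.6 in paused replicates 1 to 4. All paused values lay above the controls, and the mean rose from 47.3 ± 6.72 to 76.5 ± 10.2 (SD, n = 4 each; a log2 change of 0.69 with SE 0.16; limma-trend adjusted p = 0.00316). DESeq2 alone of the 9 alternatives did not call it (adjusted p = 0.0664). Of the 7 other own peaks, all but 1 of them inside the gene, none was called, and their changes ran from -0.29 to 0.74.

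**Figure D3:**
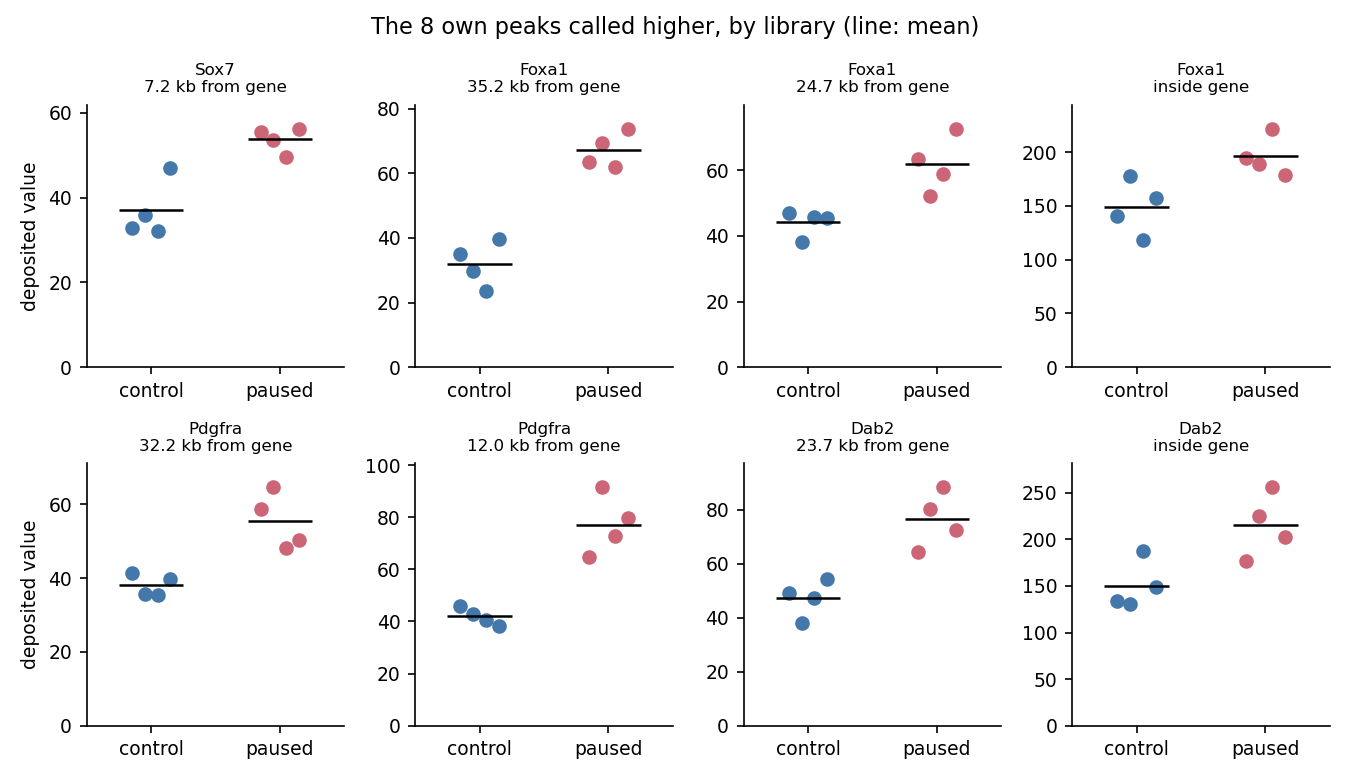
Deposited value in each of the 8 libraries for the 8 own peaks called higher in paused cells, 1 point a library, with a line at the group mean; distances are from the gene span. Control and paused points do not overlap in 7 panels and overlap by 1 library in the panel of the peak inside Dab2.

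To compare gene by gene, the values of each gene's own peaks were summed per library and tested with limma-trend over 18182 protein-coding genes. The sum was called higher in 3 of the 9 genes, Foxa1, Pdgfra and Dab2, and lower in none. This is 3 of 9, where 29.8% of all genes were called higher and 1.40% lower, so the count is no result about the 9 as a group. The median change over all genes was 0.15, against which the changes are to be read. Under TMM rescaling that median was near 0. Then 2 of the 9 were called higher, beside 4.60% of all genes; it was 2 with edgeR and TMM (4.86%), 1 after loess correction (4.67%), 0 with DESeq2 (2.83%) and 5 with a block on the replicate number (36.8%). Without control replicate 2 or paused replicate 2 it was 5, where 5048 and 4854 of all 18182 genes were called higher. The 4 paused sums lay above all control sums for 4 of the 9, where 25.7% of all genes did so.

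The Foxa1 sums were 505, 521, 488 and 536 in control replicates 1 to 4 and 643, 610.4, 679.6 and 669 in paused replicates 1 to 4. The lowest paused sum exceeded the highest control sum, and the mean rose from 512 ± 20.9 to 650.4 ± 30.9 (SD, n = 4 each; a log2 change of 0.34 with SE 0.067; limma-trend adjusted p = 0.000505), which is 0.20 above the median of all genes. It kept its call after TMM rescaling (0.20, adjusted p = 0.0398), not with DESeq2 (adjusted p = 0.0767). The 3 called peaks made up 72.8% of the difference in the sum.

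The Pdgfra sums were 553, 497, 515 and 506 in control replicates 1 to 4 and 656, 648, 650.1 and 669 in paused replicates 1 to 4. The 4 paused sums lay close together, all above the controls, and the mean rose from 517 ± 24.6 to 656 ± 9.36 (SD, n = 4 each; a log2 change of 0.34 with SE 0.066; limma-trend adjusted p = 0.000412). Here the 2 called peaks made up only 38.0% of the difference, the other 7 the rest. The call held after TMM rescaling (0.20, adjusted p = 0.047), and was lost with edgeR and TMM (adjusted p = 0.0681), after loess correction (adjusted p = 0.0553) and with DESeq2 (adjusted p = 0.137).

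The Dab2 sums were 394, 361, 471 and 432 in control replicates 1 to 4 and 474, 557, 611 and 512 in paused replicates 1 to 4. Control replicate 3 and paused replicate 1 nearly met, without overlap. The mean rose from 414 ± 47.5 to 539 ± 59.1 (SD, n = 4 each; a log2 change of 0.38 with SE 0.086; limma-trend adjusted p = 0.00193), with 76.0% of the difference in the 2 called peaks. The call was lost after TMM rescaling (0.23, adjusted p = 0.0588), after loess correction (adjusted p = 0.0644) and with DESeq2 (adjusted p = 0.0922), and held with edgeR and TMM (adjusted p = 0.0481).

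The Sox7 sums, 79.5, 97.9, 94.8 and 88.2 in control replicates 1 to 4 and 107, 110.4, 116 and 112 in paused replicates 1 to 4, also did not overlap, but were not called (a log2 change of 0.31 with SE 0.12; limma-trend adjusted p = 0.0536). For Sox17, with control sums from 449 to 577 and paused sums from 519 to 649, the change was 0.18 (SE 0.080; limma-trend adjusted p = 0.0871). Both had adjusted p values between 0.05 and 0.1. Gata4 had control sums from 648 to 751 and paused sums from 688 to 802, a change of 0.14 (SE 0.066; limma-trend adjusted p = 0.102) that went to -0.0061 after TMM rescaling. The change of Gata4 was thus that of the median gene.

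Under the deposited scaling the changes of Gata6, Foxa2 and Hnf4a were those nearest to 0, all below the 0.15 of the median gene; after TMM rescaling all 3 were negative and none was called. The Gata6 sums ran from 320.0 to 373 in control and from 334 to 396 in paused libraries (a log2 change of 0.041 with SE 0.082; limma-trend adjusted p = 0.722; -0.11 after TMM rescaling). The Foxa2 sums ran from 418 to 450.4 and from 396 to 453 (a log2 change of -0.019 with SE 0.075; limma-trend adjusted p = 0.862; -0.16 after TMM rescaling, adjusted p = 0.133). The Hnf4a sums ran from 171 to 237 and from 172 to 223 (a log2 change of 0.012 with SE 0.11; limma-trend adjusted p = 0.941; -0.13 after TMM rescaling). In each of the 3 the groups overlapped. When every peak in the window was counted, whatever gene was nearest, 6 of the 9 sums were called higher, where 50.0% of all 20225 genes were, the added ones being Gata4, Sox7 and Hnf4a. At Hnf4a the change was then 0.18 (limma-trend adjusted p = 0.00465), a sum in which 16 of 21 peaks are nearer to another gene.

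**Figure D4:**
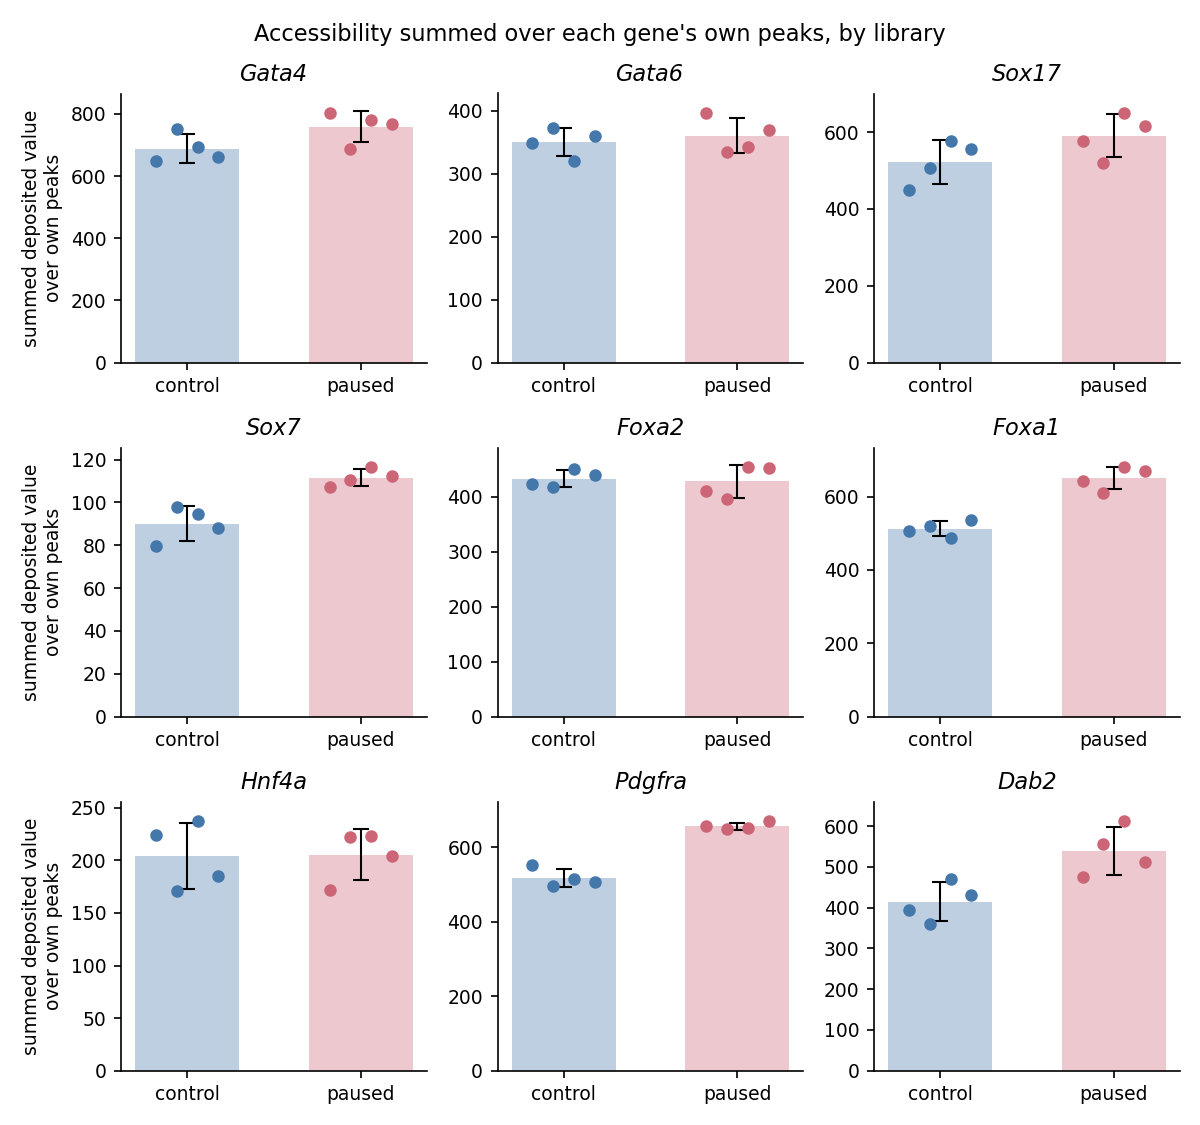
Deposited values summed over each gene's own peaks, 1 point a library, with bars at the group mean and error bars of 1 SD (4 libraries a group); axes start at 0 and differ between panels. Control and paused points are separate for Sox7, Foxa1, Pdgfra and Dab2 and overlap for the other 5 genes.

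Within a library the ratio of 2 sums does not depend on a scaling by 1 factor per library. A correction on strength, such as the loess one, can change it. The log2 ratio of Foxa1 over Foxa2 was 0.25, 0.32, 0.11 and 0.29 in control replicates 1 to 4 and 0.65, 0.62, 0.58 and 0.56 in paused replicates 1 to 4. It was higher in all 4 paused libraries, by 0.36 on average (exact two-sided permutation p = 0.0286, the smallest that 4 against 4 can give; Benjamini-Hochberg adjusted p = 0.0857 over 3 pairs). The adjusted value is the lowest that a single separated pair among 3 can reach, so the adjusted test could not have called this ratio on its own. The ratio does not tell which of the 2 sums differed. It reuses the Foxa1 sum called above, so it is no separate result, and how often other gene pairs separate was not tested. The difference in the ratio was 0.099 for Gata4 over Gata6 and -0.13 for Sox17 over Sox7 (exact two-sided permutation p = 0.2 for each, adjusted p = 0.2), with groups that overlapped.

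**Figure D5:**
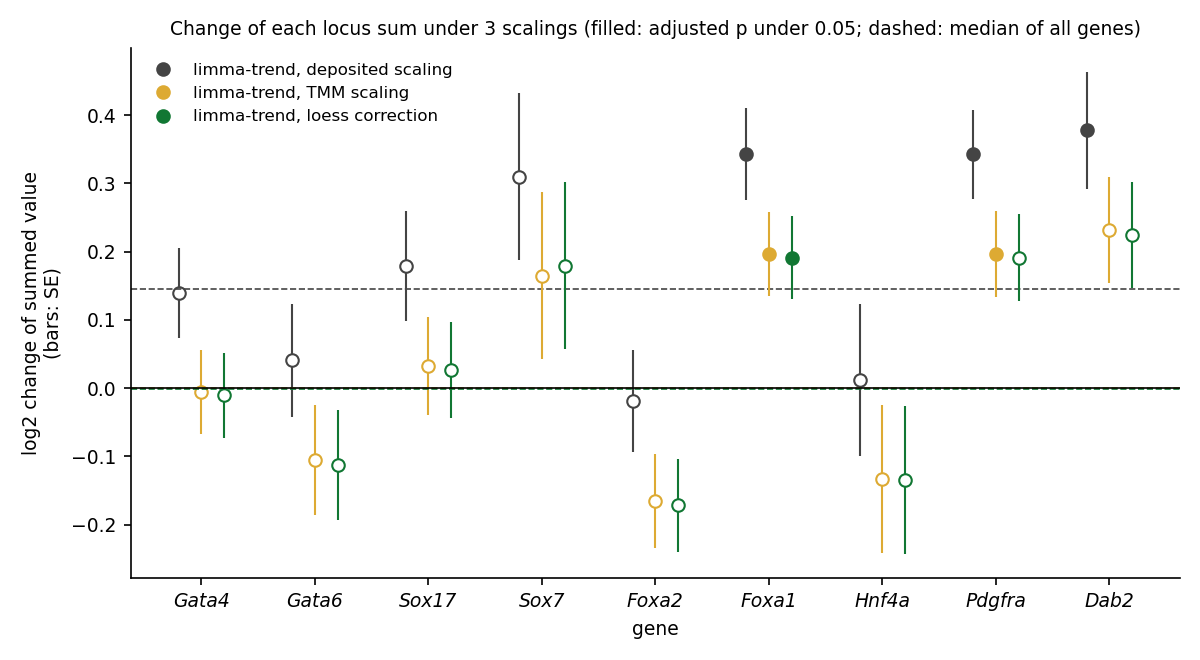
Log2 change of the locus sum of each of the 9 genes with limma-trend under the deposited scaling, TMM rescaling and loess correction, with bars of 1 SE; filled points have an adjusted p under 0.05 and dashed lines are the medians of all genes. Foxa1, Pdgfra, Dab2, Sox7 and Sox17 lie above 0 and Foxa2 below 0 under all 3 scalings drawn, whereas Gata4, Gata6 and Hnf4a change sign.

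Other genes of the endoderm programme were counted by role from a list of 30, all of which had own peaks and could be tested. Their sums were called higher for 11 and lower for 0 (36.7%, beside 29.8% of all genes), with a median change of 0.15, the same as that of all genes. Among 8 transcription factors 3 were higher, among them Gata5 (0.24), a zinc finger factor of the GATA family, and Hhex (0.29), a homeobox factor. Among 7 receptors, ligands and uptake proteins 3 were higher: Pdgfa (0.25), which encodes the ligand of PDGFRA, Lrp2 (0.20), which encodes the uptake receptor megalin, and Kit (0.38). Among 8 basement membrane genes 5 were higher, Lama1 (0.33), Lamb1 (0.30), Lamc1 (0.21), Col4a1 (0.23) and Nid1 (0.32), which encode laminin, collagen IV and nidogen chains. Of 7 genes of secreted proteins none was called by limma-trend. With edgeR and TMM 2 of the 30 were called higher, Kit among them, beside 4.86% of all genes. Of the 8 basement membrane genes 0 were called higher in that setting. Cubn, which encodes the uptake receptor cubilin, was called lower in it (edgeR adjusted p = 0.0186), as were 870 of all 18182 genes. Under the deposited scaling the change of Cubn was -0.12 (limma-trend adjusted p = 0.228).

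Marker genes of the cell types that such a culture could hold were described in the same way; these are sums of accessibility, not expression, and none of the markers was at 0. The 9 embryonic stem cell markers, such as Pou5f1, Nanog and Esrrb, together summed to 9004 to 9519 in control and 10127 to 11553 in paused libraries. Their median was at percentile 95.5 of all genes' sums, and 6 of 9 were called higher, beside 29.8% of all genes, which cover every strength. The called changes ran from 0.13 at Sox2, below the 0.15 of the median gene, to 0.33 at Zfp42. The 8 genes of endoderm derivatives, all of them also among the 30 above, summed to 3959.9 to 4052 in control and 4102 to 4751 in paused libraries (median percentile 71.3, 3 of 8 higher). The 5 trophoblast markers summed to 3466 to 3687 in control and 3539 to 4072 in paused libraries (median percentile 79.0, 1 of 5 higher) and the 6 fibroblast markers to 1942 to 2262 in control and 2147 to 2228 in paused libraries (median percentile 60.9, 1 of 6 higher). With edgeR and TMM 3 of the 28 markers were called higher, beside 4.86% of all genes, all 3 of them stem cell markers (Zfp42, Esrrb and Tfcp2l1). The 9 genes described here had a median percentile of 71.0, from 17.6 for Sox7 to 87.1 for Gata4, and together summed to 3625 to 3845 in control and 4085 to 4506 in paused libraries. The sum over all peaks also differed, at 7315540 to 7653990 in control and 8062920 to 8640950 in paused libraries, and the ranges of every list are to be read against that general shift. The part of cell mixture in the changes was not tested.

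The genes whose sums followed those of the first 2 factors most closely over the 8 libraries, among genes with a mean sum at least as high, are given as a description, since 8 libraries in 2 groups share depth and treatment. For Gata4, with 2378 genes compared, these were Zfp292 (Pearson r 0.977), Lekr1 (0.971) and Unc13a (0.971). For Gata6, with 8116 compared, they were Slc23a2 (0.960), Nub1 (0.907) and Cdk8 (0.896). Being picked as the highest of so many over 8 libraries, these values are high by selection.

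Short motifs were searched on both strands of the 300-base windows (250 before to 50 after the start) of the 9 listed starts. The GATA motif AGATAA was found at 3 of them, the third start of Foxa2, the first of Hnf4a and the first of Dab2, none of which has a peak within 1 kb. It is present at 11.2% of all 32851 starts in the table. The forkhead motif TGTTTAC was found at 1, that of Foxa1 itself, and at 3.65% of all starts. The SOX motif ACAATG (12.6% of all starts) and the AP-1 motif TGANTCA (7.81%) were found at none. These are matches of letters, not sites of binding.

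In the authors' deposited table, which gives its own fold and FDR for each peak, 6 of the 62 own peaks had an FDR under 0.05, all higher in paused cells, beside 9.19% of all peaks higher and 1.80% lower. In the authors' deposited table the log2 folds of these were 0.39 at Sox7, 0.84 and 0.33 at Foxa1, 0.66 at Pdgfra and 0.51 and 0.45 at Dab2, all smaller than the changes given above for the same peaks. How those folds were computed is not given in the sources used here, so they may be another measure than the changes above. The peaks absent from that 6 but called here were the second of Foxa1 beyond its 3′ end and the one before Pdgfra, whose adjusted p values were 0.0497 and 0.0363. Both analyses use the same 8 libraries, so their overlap is no independent support.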

How the data were processed

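ATAC-seq libraries of E14 mouse embryonic stem cells (4 control, 4 paused) were compared over 1 shared set of peaks, each 201 bp wide. Groups and replicate numbers came from the sample titles, and table columns were matched through the library names in the labels. The number of sample columns left unused was 0. FastQC, Trim Galore, Bowtie2 2.4.1, MACS3 3.0.3, DiffBind 3.16.0 and the build mm10 are named, per the submitters' processing notes, without their roles, and the handling of duplicates and of the Tn5 offset is not given in the sources used here.

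The values deposited by the authors for each library are a scaled signal. They are read numbers over a factor of that library, as the values themselves show: 99.8% to 100% of those in a library were whole multiples of 1 step. The origin of the factors is not given in the sources used here. The authors also deposited log2 concentrations and folds, and p-values with FDR, of their own comparison, which are quoted as such.

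The test was limma-trend (limma 3.58.1, R 4.3.3) with no covariates on log2(value + 1), over peaks with a mean of at least 10, or over protein-coding genes with a summed own-peak value of at least 10, with Benjamini-Hochberg adjustment over all of them. Fold changes on this scale understate the change of weak peaks. On recovered reads, edgeR 4.0.16 (quasi-likelihood) called 9084 peaks higher and 7058 lower with TMM, and 16429 and 4625 with the deposited factors; DESeq2 1.42.0 called 3902 higher and 1892 lower. Other alternatives were a pseudocount of 0.1, no filter, a mean of at least 50, TMM rescaling, a loess correction (span 0.3), a block on the replicate number, a window of 20 kb, all peaks in the window, and each library left out. The peak tests by limma-trend and by edgeR with TMM were also run on simulated counts with 200 changed peaks. That simulation held no general shift between the groups. Locus sums and the other settings were not simulated.

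Gene spans came from RefSeq tables of GRCm38.p6, read as the same coordinates as mm10; a peak lay within 1 kb of 41.75% of gene ends, and of 17.75% and 17.86% once peaks were shifted by 50000 bp either way. Exons, introns and the starts of 4 genes were not analysed here. Named peaks of each gene were the nearest to a listed start (within 1 kb, otherwise 5 kb, otherwise to a gene end), the strongest, and every called one; the Gata6, Foxa2, Rp1l1 and neighbouring peaks outside that rule were named after their values were seen. The genes and lists were chosen with earlier results of these data known. The values of 1 gene of the endoderm list are not reported here; the list's counts include it. PCR copies of a molecule may be counted more than once, so limits from counts cover counting error only.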

Additional observations from a re-analysis of the deposited data

Results flagged for a closer look

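In groups of 4 libraries, 1 library lay far from the other 3, by Dixon's criterion, in 5 of 74 groups checked; chance gives this in about 1 in 20 groups, so the number is near what it gives. The reads in peaks of control replicate 1 were 21161767, where the other controls had 4434037 to 6262445. At the Gata6 peak by the lower-coordinate end of the gene (chr18:11052978-11053178), control replicate 2 had a value of 95.5, where the other controls had 81.2 to 82.3. At the Foxa1 peak 24712 bp beyond the gene (chr12:57515816-57516016), control replicate 2 had 38.2, where the others had 45.5 to 47.0; without it the change was 0.40 (limma-trend adjusted p = 0.127). At the Foxa1 peak 856 bp upstream of the start (chr12:57546867-57547067), control replicate 3 had 106.7, where the others had 82.3 to 86.0. At the Fitm2 peak in the Hnf4a window (chr2:163463298-163463498), control replicate 4 had 243.9, where the others had 212.6 to 215.05, all of them under the lowest paused value of 298. What set these libraries apart was not tested.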

How the results depend on the processing

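Own peaks called higher numbered 8, and 4 after TMM rescaling in limma-trend, 3 after loess correction, 4 with edgeR and TMM, 2 with DESeq2 and 4 to 7 with 1 library left out; with a pseudocount of 0.1, no filter, a mean of at least 50, edgeR with the deposited factors or the block they numbered 6 to 10. Own peaks called lower numbered 0 in every setting run. Peaks nearer to another gene called higher numbered 5, and 1 with a mean of at least 50, 3 after TMM rescaling, 3 with DESeq2 and 3 to 5 with 1 library left out; those called lower numbered 2, and 0 with a mean of at least 50, 1 with DESeq2 and 0 to 2 with 1 library left out. Sums called higher numbered 3, and 1 after loess correction, 0 with DESeq2, 6 with all peaks in the window (beside 50.0% of all 20225 genes) and 3 to 5 with 1 library left out. Calls over all peaks went from 13958 higher and 3702 lower to 7630 and 5289 after TMM rescaling, 6497 and 4459 after loess correction, 9084 and 7058 with edgeR and TMM and 3902 and 1892 with DESeq2. Calls over all sums went from 5415 and 255 to 837 and 766, 849 and 781, 884 and 870, and 514 and 445 in the same order, and to 10116 and 151 with all peaks in the window. A mean of at least 50 left 751 lower peaks. Without paused replicate 4 there were 8980 higher peaks and 163 lower sums, and without control replicate 1, 3 or 4 there were 2331, 2314 and 2319 lower peaks. With 1 library left out, calls over all peaks ran from 8980 to 12689 higher and from 2314 to 3871 lower. Those over all sums ran from 3622 to 5559 higher and from 163 to 247 lower. The share of higher among all called peaks was 79.0%, and 59.1%, 59.3%, 56.3% and 67.3% in that order. Of the values of single peaks and sums, 462 kept direction and side of the threshold, 74 lost a call, 14 gained one and 51 turned sign. After TMM rescaling in limma-trend, the log2 change turned to -0.020 for the Gata4 peak at 63268403, -0.035 for the Gata6 peak at 11052978, -0.047 for the Foxa2 peak at 148048579, -0.0095 for the Foxa1 peak at 57546867, -0.019 for the Hnf4a peak at 163535023, -0.042 for the Pdgfra peak at 75148789, -0.0061 for the Gata4 sum, -0.11 for the Gata6 sum and -0.13 for the Hnf4a sum. After loess correction, the log2 change turned to -0.032 for the Gata4 peak at 63268403, -0.12 for the Gata6 peak at 11052978, -0.013 for the Sox17 peak at 4492912, -0.025 for the Sox17 peak at 4496619, -0.012 for the Sox7 peak at 63943694, -0.15 for the Foxa2 peak at 148048579, -0.096 for the Foxa1 peak at 57546867, 0.066 for the Hnf4a peak at 163510832, -0.12 for the Hnf4a peak at 163535023, -0.13 for the Pdgfra peak at 75148789, -0.011 for the Gata4 sum, -0.11 for the Gata6 sum and -0.13 for the Hnf4a sum. With edgeR and TMM, the log2 change turned to -0.10 for the Gata4 peak at 63268403, -0.019 for the Gata6 peak at 11052978, -0.047 for the Foxa2 peak at 148048579, -0.044 for the Hnf4a peak at 163535023, -0.053 for the Pdgfra peak at 75148789, -0.10 for the Gata6 sum and -0.17 for the Hnf4a sum. With DESeq2, the log2 change turned to -0.083 for the Gata4 peak at 63268403, -0.027 for the Gata6 peak at 11052978, -0.049 for the Foxa2 peak at 148048579, -0.040 for the Hnf4a peak at 163535023, -0.052 for the Pdgfra peak at 75148789, -0.00034 for the Gata4 sum, -0.10 for the Gata6 sum and -0.16 for the Hnf4a sum. With 1 library left out at a time, signs also turned within the ranges -0.059 to 0.20 for the Gata4 peak at 63268403, -0.28 to 0.067 for the Hnf4a peak at 163510832, -0.027 to 0.19 for the Hnf4a peak at 163535023, -0.045 to 0.11 for the Pdgfra peak at 75148789, -0.0049 to 0.076 for the Gata6 sum, -0.047 to 0.017 for the Foxa2 sum and -0.069 to 0.095 for the Hnf4a sum. None of the values that turned sign was called. The causes were not tested, beyond the shift that each scaling makes by construction.

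With a block on the replicate number, 9 own peaks and 5 sums were called higher, the added sums being Sox17 (adjusted p = 0.0273) and Sox7 (adjusted p = 0.0471); the strongest Gata4 peak was then called too (adjusted p = 0.0283). The numbers come from the titles. Deviations of same-numbered libraries correlated at 0.0358 to 0.133, all positive, and those of other pairs at -0.105 to 0.0703. These ranges overlap, and whether same-numbered libraries belong together was not tested.

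Depth limits the weak peaks: in the shallowest library 3 reads are worth 5.08, beside a mean of 12.7 at the weakest Hnf4a peak that was tested and 9.17 at the one that was not. The scaling limits every change near 0.10 for peaks or 0.15 for sums, where direction depends on it.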
